A study of Homo sapiens with 23 samples.

Results

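The GALNT genes encode the enzymes that start mucin-type O-glycosylation, and 10 of them (*GALNT1*, *GALNT2*, *GALNT3*, *GALNT4*, *GALNT5*, *GALNT6*, *GALNT7*, *GALNT10*, *GALNT11* and *GALNT12*) were followed by RNAseq across *AGO* knockout lines of HCT116, which grow from a human colorectal carcinoma. The genes were listed by symbol and matched to Ensembl identifiers, and all 10 were found among the 57875 genes listed and among the 22842 genes that passed the filter on low counts. The family was chosen by the low level of *GALNT3* in the cells that had lost both *AGO1* and *AGO2* in these same data. Levels in all lines were known when it was chosen, so comparisons of *GALNT3* between lines are given as a description with no test. The other 9 genes are called the *GALNT3* paralogs below. They were tested, but the members were listed with earlier results of these data known.

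Total RNA was sequenced from wild-type cells and from 4 lines edited with CRISPR: 1 lacking *AGO1*, 1 lacking *AGO2*, 1 lacking both (*AGO1/2*, the double knockout) and 1 that also lacks *AGO3* (*AGO1/2/3*, the triple knockout). Each line gave 3 samples, 15 in all. The lines were untreated, were grown in the same medium and differed by label only in the *AGO* genes edited. Each genotype is 1 cell line, so genotype and line cannot be told apart. For *AGO2* knockout samples the file headers give a different Salmon mode (quasi) from all others, so that mode and genotype cannot be told apart in any comparison with that line. Gene counts summed to 27709971 in the shallowest sample and to 45271146 in the deepest. The *AGO2* knockout samples held 40419152 to 45271146 counts. The others held 27709971 to 32381721, except triple knockout replicate 1 (40567975). Levels are given as CPM, counts scaled to a common library size with TMM factors for composition, and differences as log2 fold changes with the standard error (SE) of edgeR's quasi-likelihood model. A gene was called when its p, adjusted by the Benjamini-Hochberg method over all genes tested, was at or under 0.05. In this bulk RNA, fewer cells of a type and less RNA per cell cannot be told apart.

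GALNT proteins sit in the Golgi and transfer N-acetylgalactosamine from its UDP donor to serine or threonine of a passing protein. Several isoenzymes act side by side: some glycosylate bare peptides, others prefer peptides that already carry a sugar, and later enzymes extend and cap the chain. In the colon the heavily O-glycosylated mucins are the best known products. AGO proteins are loaded with microRNAs (miRNAs), which pair through their seed, bases 2 to 8, with sites that lie mostly in 3′-UTRs and lower the level or translation of the mRNA.

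Seed matches were therefore read from the 3′-UTRs of the 10 genes, using the canonical transcripts of GENCODE v44 on GRCh38. The 9 seeds searched were those of the miRNAs assayed in the study's methods (let-7a and let-7f, which share a seed, miR-21, miR-27a, miR-29a and miR-125b) and of miR-30a, miR-200b, miR-141 and miR-17, added after values had been seen. The levels of these miRNAs were not analysed here. The site UGUUUAC, the reverse complement of the miR-30a seed, was found on the transcript strand of 7 of the 10 genes, more than for any other seed searched, and these sequences are shown because genes that rose and genes that fell both carry it. The mature miRNA comes from RefSeq (GRCh38.p14) with its seed in capitals. Each 3′-UTR site is written 5′ to 3′ along the transcript with the 7 matching bases in capitals.
hsa-miR-30a-5p: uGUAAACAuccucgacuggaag
GALNT3, chr2:165748523-165748551, minus strand: aggggaagagaUGUUUACaguaugaugaa
GALNT6, chr12:51353276-51353304, minus strand: gucuguagaacUGUUUACagauaucuccu
GALNT1, chr18:35709987-35710015, plus strand: gugcacacugaUGUUUACaagauugaaag
GALNT2, chr1:230281749-230281777, plus strand: gcggugagcuaUGUUUACaugacacagug
GALNT4, chr12:89519730-89519758, minus strand: aaaagaaaauuUGUUUACuuacccauuag
GALNT7, chr4:173321891-173321919, plus strand: ucugcaguuacUGUUUACaagacugcuuu
GALNT10, chr5:154418353-154418381, plus strand: ccagcccuucaUGUUUACcuuuugcuuug

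The *GALNT7* 3′-UTR held 2 such sites and only the first is shown. No UGUUUAC was found in the 3′-UTRs of *GALNT5*, *GALNT11* and *GALNT12*. Of 14752 3′-UTRs of tested genes, 17.7% held at least 1 such site, and the share depended on length: it was 13.6% among 3′-UTRs of a length like that of *GALNT3* and 34.4% among those like *GALNT10*. With respect to the other seeds, the *GALNT3* 3′-UTR also held 1 match each to miR-17 and miR-27a. *GALNT6* held 3 matches to miR-17, and *GALNT7* held 2 to miR-27a and 1 to miR-125b. *GALNT1* held 1 to let-7, *GALNT12* 1 to miR-21, and *GALNT2* 1 each to miR-200b and miR-29a. *GALNT4* held 2 each to miR-17 and miR-29a and 1 to miR-141. *GALNT10* held 2 to miR-141 and 1 each to miR-17, miR-200b and miR-29a. *GALNT5* held 1 each to miR-17, miR-27a, miR-29a, miR-141 and miR-200b. A miR-17 match was in 42.2% of 3′-UTRs of a length like that of *GALNT6* and 18.7% of those like *GALNT3*. *GALNT11* held none of the 9. A match describes these letters only, and binding was not analysed here.

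The RNA of the *AGO* genes was compared with the labels. *AGO1* mRNA was 107.8 to 146.4 CPM in wild-type samples and 28.7 to 39.5 CPM in the samples of the 3 lines that lack *AGO1*. *AGO3* mRNA was 46.1 to 57.4 CPM in triple knockout samples against 100 to 130.4 CPM in wild type. *AGO2* mRNA was 261.8 to 314.0 CPM in *AGO2* knockout samples against 378.7 to 459.2 CPM in wild type, but 320.7 to 364.5 CPM in double and 517.7 to 557.5 CPM in triple knockout samples. It was 334.3 to 363.6 CPM in *AGO1* knockout samples, where the gene is intact by label, so it does not mark the edit in the double or the triple knockout. Each of 8 colorectal epithelial markers examined lay above 3 counts in at least 1 sample of every line, although *VIL1* and *LGALS4* failed the filter on low counts and fell to between 0 and 3 counts in single samples, as *KRT20* did in the triple knockout (2 counts). Their summed level was 1424.8 to 1501.4 CPM in wild type and 1295.9 to 1751.2 CPM in triple knockout cells. Most of it was *KRT8* and *KRT18*, at means of 641.5 and 508.2 CPM in wild type and 851.9 and 617.5 CPM in the triple knockout. The sum therefore does not show the other markers. Of 6 tested markers 4 were called lower and 1 higher in the triple knockout, where *CDH1* went from 97.7 to 8.57 CPM. Summed levels in wild-type cells were at most 31.0 CPM for 5 mesenchymal markers, 2.52 CPM for 3 endothelial markers and 5.67 CPM for 4 leukocyte markers, and in triple knockout cells at most 30.5, 2.63 and 2.68 CPM.

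The paralogs that were called were mostly higher, and most calls came in the triple knockout. In *AGO1* knockout cells, 0 of 9 paralogs were called, where 3.17% of all genes tested were called higher and 5.50% lower; at an unadjusted p at or under 0.05 *GALNT12* alone passed, and DESeq2 called 0 as well. In *AGO2* knockout cells 2 paralogs were called higher and 0 lower, against 8.55% and 10.8% of all genes. In double knockout cells 3 paralogs were called higher and 0 lower, against 8.37% and 8.35% of all genes. In triple knockout cells 5 paralogs were called higher and 1 lower, against 20.3% and 19.8% of all genes. Of 7 further family genes tested there, 0 were called higher, 2 lower and 5 not at all, with a median log2 fold change of -0.72. So few calls do not set the rest of the family apart from all genes. The median log2 fold change of the 9 paralogs was -0.01, 0.27, 0.17 and 0.64 in these 4 lines, where that of all genes tested lay between -0.022 and 0.011. All 4 comparisons share the wild-type samples. Scaling by total counts alone would lower the median of all genes by 0.14 in triple knockout cells and take the share of higher calls over all genes from 50.7% to 36.7% (from 36.6% to 20.5%, 44.3% to 16.9% and 50.1% to 34.9% in the *AGO1*, *AGO2* and double knockout lines), but the 6 paralogs called in the triple knockout were called in the same direction with it.

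**Figure D1:**
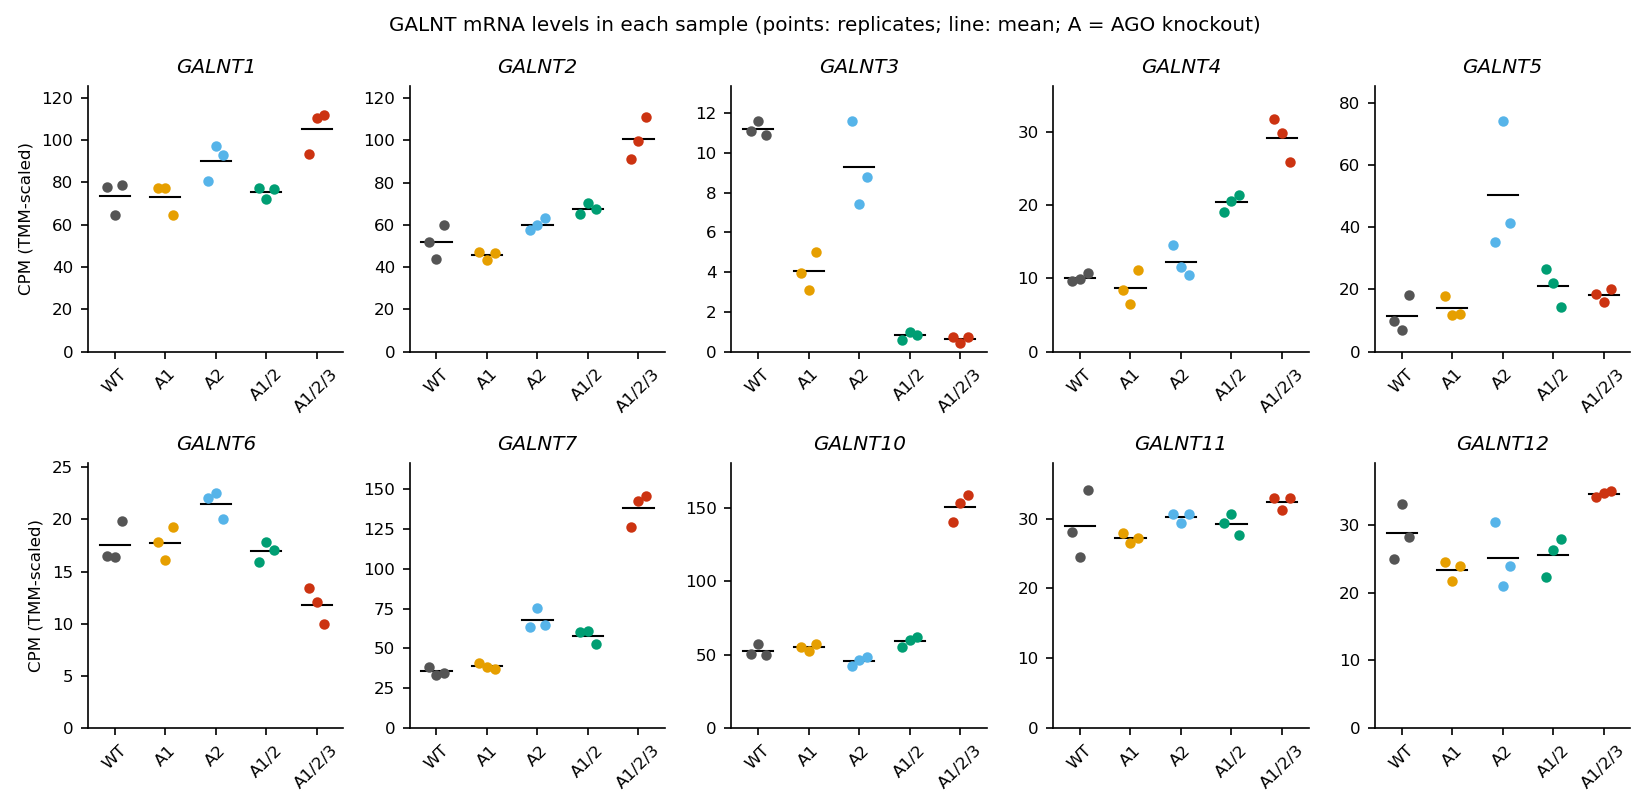
Each panel plots 1 gene, with the level in CPM on a linear axis from 0 and the 5 lines on the horizontal axis (A stands for *AGO* knockout), a point for each of 3 samples and a line at their mean. *GALNT3* lies at 10.9 to 11.6 CPM in wild type and at 0.42 to 1.0 CPM in both multiple knockouts, while *GALNT7*, *GALNT10*, *GALNT4* and *GALNT2* are highest in triple knockout samples.

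*GALNT3* (ENSG00000115339, chr2:165747588-165794659) is an isoenzyme of epithelial cells best known for protecting the hormone FGF23 from cleavage by O-glycosylating it. It was measured at 11.1, 11.6 and 10.9 CPM in wild-type cells. In *AGO1* knockout cells it was at 3.98, 3.11 and 5.04 CPM, and in *AGO2* knockout cells at 11.6, 7.43 and 8.79 CPM. It was at 0.608, 1.0 and 0.847 CPM in double knockout cells and at 0.74, 0.42 and 0.712 CPM in triple knockout cells. The *AGO2* knockout samples overlapped the wild-type samples, each other line lay wholly below wild type, and the double and triple knockouts overlapped one another. The log2 fold changes against wild type were -1.46 (SE 0.21), -0.27 (SE 0.19), -3.77 (SE 0.25) and -4.13 (SE 0.25) in the *AGO1*, *AGO2*, double and triple knockouts in turn, which leaves 36.3%, 83.1%, 7.3% and 5.7% of the wild-type level. Without *AGO2* knockout replicate 1 its value in that line was -0.49. From the double to the triple knockout the log2 fold change was -0.36 (SE 0.30). Behind the low values stand 12 to 29 counts per sample in the double and triple knockouts, so counting error is part of their spread. The choice of the gene named the double and triple knockouts, but the levels in the single knockouts were known as well. *GALNT3* was higher in *AGO2* than in *AGO1* knockout cells by 1.20 on the log2 scale (SE 0.20), which is also a description.

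*GALNT6* (ENSG00000139629, chr12:51351247-51392867), the member closest to *GALNT3* in the family tree, was the only paralog called lower against wild type with TMM scaling. It was at 16.5, 16.4 and 19.8 CPM in wild type and at 13.4, 12.1 and 9.93 CPM in triple knockout cells, with no overlap. The log2 fold change was -0.57 (SE 0.12, adjusted p = 0.00159) against wild type and -0.52 (SE 0.12, adjusted p = 0.00679) against double knockout cells. In double knockout cells, where *GALNT3* was already at 7.3% of wild type, *GALNT6* stayed at 15.9, 17.8 and 17.1 CPM, a log2 fold change of -0.05 (SE 0.12, adjusted p = 0.818). Its pattern over the 15 samples was nonetheless the closest to that of *GALNT3* among the paralogs (Pearson r = 0.707). The other 8 had r between -0.792 and 0.031. Among 12923 protein-coding genes ranked by this correlation, *GALNT6* had rank 1295 only, so many other genes followed *GALNT3* more closely. Samples share lines, so r rests largely on the line means and is a description.

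*GALNT1* and *GALNT2*, the broadly expressed isoenzymes that act on many bare peptides, both rose in triple knockout cells. *GALNT2* (ENSG00000143641, chr1:230057990-230282122) was at 52.0, 43.9 and 60.0 CPM in wild type, at 65.4, 70.3 and 67.6 CPM in double knockout cells and at 91.0, 99.8 and 111.0 CPM in triple knockout cells. The 3 lines did not overlap, and the log2 fold changes against wild type were 0.38 (SE 0.11, adjusted p = 0.0268) and 0.95 (SE 0.11, adjusted p = 6.77e-06). The first of these calls was weak: it was lost under 10 of 23 alternatives, 7 of them the omission of a single library, with an adjusted p of up to 0.136. Those libraries were wild-type replicates 1 and 2, *AGO2* knockout replicate 3, double knockout replicates 1 to 3 and triple knockout replicate 2. *GALNT1* (ENSG00000141429, chr18:35581117-35711834) was at 77.6, 64.3 and 78.6 CPM in wild type and at 93.3, 110.4 and 111.7 CPM in triple knockout cells, an increase of 0.52 on the log2 scale (SE 0.11, adjusted p = 0.00193). In double knockout cells it was at 72.2 to 77.3 CPM, inside the wild-type range.

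*GALNT7*, *GALNT4* and *GALNT10* had the 3 largest log2 fold changes among the paralogs in triple knockout cells. *GALNT7* (ENSG00000109586, chr4:173168811-173323967), which prefers peptides that already carry a sugar, was at 38.4, 33.6 and 34.7 CPM in wild type and at 126.5, 142.4 and 146.0 CPM in triple knockout cells. Its log2 fold change was 1.96 (SE 0.10, adjusted p = 3.2e-09), 3.89-fold. It also rose in *AGO2* knockout cells (63.3, 75.6 and 64.6 CPM, log2 fold change 0.93, adjusted p = 6.36e-05) and in double knockout cells (60.5, 60.9 and 52.8 CPM, log2 fold change 0.71, adjusted p = 0.000231). *AGO1* knockout samples, at 36.8 to 40.8 CPM, overlapped wild type. *GALNT7* was the only paralog called in 3 of the 4 lines, and its calls held under every alternative run.

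*GALNT10* (ENSG00000164574, chr5:154190730-154420984) was called against wild type in the triple knockout only, except that with total counts alone it was also called lower in *AGO2* knockout cells (-0.32, adjusted p = 0.0268). It was at 50.5, 57.1 and 49.7 CPM in wild type, at 55, 60.2 and 62.0 CPM in double knockout cells, which overlapped wild type, and at 140.4, 153.1 and 158.4 CPM in triple knockout cells. The log2 fold change in the triple knockout was 1.52 (SE 0.09, adjusted p = 1.15e-08) against wild type, and 0.17 (SE 0.09, adjusted p = 0.24) in the double knockout.

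*GALNT4* (ENSG00000257594, chr12:89519412-89524796) has a single exon that lies within the readthrough gene *POC1B-GALNT4*, so reads cannot be split between them with certainty. It was at 9.62, 9.94 and 10.7 CPM in wild type and at 8.4, 6.43 and 11.1 CPM in *AGO1* knockout cells. In double knockout cells it was at 19.1, 20.6 and 21.4 CPM, and in triple knockout cells at 31.7, 29.8 and 25.9 CPM. These lines did not overlap wild type or one another, with log2 fold changes of 1.01 (SE 0.17, adjusted p = 0.000713) and 1.53 (SE 0.17, adjusted p = 3.94e-06) against wild type. Summed with the readthrough, a count chosen after the values were seen, both calls stood. The readthrough itself was at 3.7 ± 1.49 CPM in wild type and 6.39 ± 1.42 CPM in triple knockout cells (SD, n = 3).

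*GALNT5* (ENSG00000136542, chr2:157257705-157318491) was called against wild type in *AGO2* knockout cells alone. It was at 9.77, 6.79 and 18.2 CPM in wild type and at 35.4, 74.3 and 41.3 CPM in *AGO2* knockout cells, a log2 fold change of 2.12 (SE 0.34, adjusted p = 0.00153). In double knockout cells it was at 26.6, 22.2 and 14.2 CPM and in triple knockout cells at 18.4, 16 and 20.0 CPM. Both overlapped the wide wild-type range, and neither was called (log2 fold changes 0.86 and 0.64, adjusted p = 0.101 and 0.149). Without wild-type replicate 3, the highest, both were called, at 1.33 (adjusted p = 0.0132) and 1.1 (adjusted p = 0.0166). The direct test against *AGO1* knockout cells, which does not use the wild-type mean, gave an increase of 1.85 in *AGO2* knockout cells (SE 0.34, adjusted p = 0.002).

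*GALNT11* (ENSG00000178234, chr7:152025674-152122340), which glycosylates Notch and members of the LDL receptor family, and *GALNT12* (ENSG00000119514, chr9:98807670-98850081), an isoenzyme of the digestive tract, were not called against wild type in any line. *GALNT11* was at 28.1, 24.5 and 34.1 CPM in wild type, and its log2 fold changes lay between -0.09 and 0.16, each with SE 0.11; without wild-type replicate 3 its value in triple knockout cells was 0.27 and just passed (adjusted p = 0.047). *GALNT12* was at 25, 33.2 and 28.2 CPM in wild type, with log2 fold changes from -0.30 to 0.27 (SE 0.14). Its triple knockout samples, at 34.2, 34.8 and 35.0 CPM, all lay above wild type, as 26.3% of all genes tested did in that line, and the adjusted p was 0.135.

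**Figure D2:**
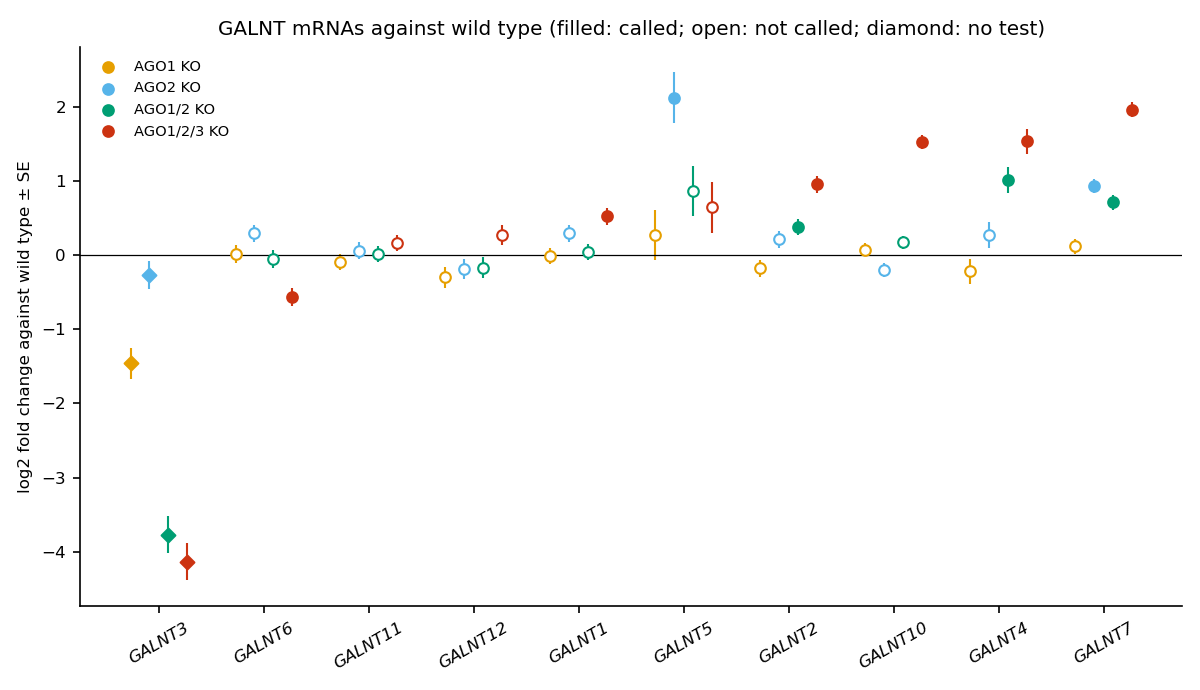
The vertical axis is the log2 fold change against wild type with its standard error, for the 10 genes on the horizontal axis and the 4 knockout lines by colour. Filled circles were called, open circles were not, and diamonds mark *GALNT3*, which has no test; *GALNT6* is the only filled circle below 0, at -0.57.

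The triple knockout, which lacks *AGO3* on top of *AGO1* and *AGO2*, was compared directly with the double knockout, with the spread estimated over all lines. Each is 1 line, so the loss of *AGO3* and the line cannot be told apart. Here 6 paralogs were called higher and 1 lower, against 11.9% and 10.0% of all genes tested. *GALNT10* rose by 1.35 (SE 0.09, adjusted p = 1.83e-07) and *GALNT7* by 1.25 (SE 0.10, adjusted p = 8e-07) on the log2 scale, and *GALNT2* by 0.57 and *GALNT1* by 0.48. The increases of *GALNT4* (0.52, adjusted p = 0.033) and *GALNT12* (0.44, adjusted p = 0.0312) were the weakest and were lost under 6 of 24 and 9 of 23 alternatives, including the omission of any of 5 and 7 single libraries, where the adjusted p reached 0.114 and 0.134. For *GALNT4* these were double knockout replicates 1 to 3 and triple knockout replicates 1 and 2, and for *GALNT12* *AGO1* knockout replicate 2, *AGO2* knockout replicate 3, double knockout replicates 1 and 2 and triple knockout replicates 1 to 3. *GALNT6* fell. Taking each step in turn, *GALNT4* moved more at the double knockout (1.01) than at the step to the triple (0.52), whereas *GALNT10* moved by 0.17 and then by 1.35; the difference between the steps was not tested.

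The 2 single knockout lines were also compared directly. Each is 1 line and their Salmon modes differ, so this comparison cannot tell whether *AGO1* and *AGO2* are equivalent for this family. In *AGO2* relative to *AGO1* knockout cells 3 paralogs were called higher and 0 lower, against 9.67% and 8.73% of all genes. They were *GALNT5* (1.85), *GALNT7* (0.81, SE 0.10, adjusted p = 9.45e-05) and *GALNT2* (0.39, SE 0.11, adjusted p = 0.0235), and the last was lost without any of 6 single libraries, with an adjusted p of up to 0.131 (*AGO1* knockout replicates 2 and 3, *AGO2* knockout replicates 1 to 3 and triple knockout replicate 2). *GALNT10* was lower by an amount close to the threshold (-0.27, adjusted p = 0.054) and was called under 9 of 22 alternatives, DESeq2 among them (adjusted p = 0.0478).

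Each genotype is 1 line, so the values that follow compare lines. Whether lines lacking *AGO2* differed from those carrying it by the same amount with and without *AGO1* was tested as an interaction. It was called for 2 of 9 paralogs, 1 in each direction, where 11.5% of all genes were called higher and 8.26% lower (73.8% rather than 58.1% of these calls were higher with total counts alone). On the log2 scale *GALNT4* changed by 0.27 from wild type to *AGO2* knockout cells and by 1.23 from *AGO1* to double knockout cells. The difference was 0.96 (SE 0.24, adjusted p = 0.0116). Summed with its readthrough, the difference for *GALNT4* was 0.49 and no longer called (adjusted p = 0.0842). For *GALNT5* the changes were 2.12 and 0.59, a difference of -1.53 (SE 0.48, adjusted p = 0.0348), and the call was lost under 8 of 22 alternatives, 6 of them the omission of a single library: wild-type replicates 1 and 2, *AGO1* knockout replicate 1, *AGO2* knockout replicate 2 and double knockout replicates 2 and 3 (adjusted p up to 0.108).

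Levels can be compared between genes only per length, and for this CPM was divided by the summed length of each gene's exons. In wild-type cells *GALNT1* led with 14.3 ± 1.56 CPM per kb, followed by *GALNT12* (9.10 ± 1.30), *GALNT2* (6.74 ± 1.04), *GALNT7* (5.22 ± 0.371) and *GALNT10* (5.00 ± 0.390; SD, n = 3). *GALNT11* stood at 3.49 ± 0.586, *GALNT3* at 2.43 ± 0.0777, *GALNT6* at 2.39 ± 0.265, *GALNT4* at 1.88 ± 0.106 and *GALNT5* at 1.05 ± 0.539 CPM per kb. Of these neighbours in rank, *GALNT7* and *GALNT10*, and *GALNT3* and *GALNT6*, overlapped. In triple knockout cells *GALNT1* (20.5 ± 2.0) and *GALNT7* (20.3 ± 1.53) overlapped at the top, followed by *GALNT10* (14.4 ± 0.882) and *GALNT2* (13.0 ± 1.29), which overlapped too, and *GALNT12* had dropped to rank 5 at 10.9 ± 0.133 CPM per kb. *GALNT3* was last at 0.136 ± 0.0386 CPM per kb, below all samples of the next gene, *GALNT6*. The ranks depend on the length used: per kb of each gene's longest transcript, *GALNT2* (11.8) stood above *GALNT12* (10.4), *GALNT10* (8.80) above *GALNT7* (8.37) and *GALNT6* (3.31) above *GALNT3* (3.25) in wild type, and *GALNT7* (32.6) above *GALNT1* (26.5) in triple knockout cells, while *GALNT3* was last there by both.

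Summed over the 10 genes, the level per length was 51.6 ± 2.78 CPM per kb in wild type, 47.9 ± 1.81 in *AGO1*, 63.1 ± 2.55 in *AGO2*, 57.4 ± 0.898 in double and 91.9 ± 4.99 in triple knockout cells (SD, n = 3). The triple knockout samples, at 86.3, 93.5 and 95.9, lay above every other sample. *GALNT3* supplied 4.73% of the summed level in wild type and 0.149% in triple knockout cells, while *GALNT7* went from 10.1% to 22.1% and *GALNT10* from 9.72% to 15.6%. The loss of so small a share as that of *GALNT3* could move the sum only a little. Further genes of the family are not in the sum. These are mRNA levels, and protein or enzyme activity was not analysed here.

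**Figure D3:**
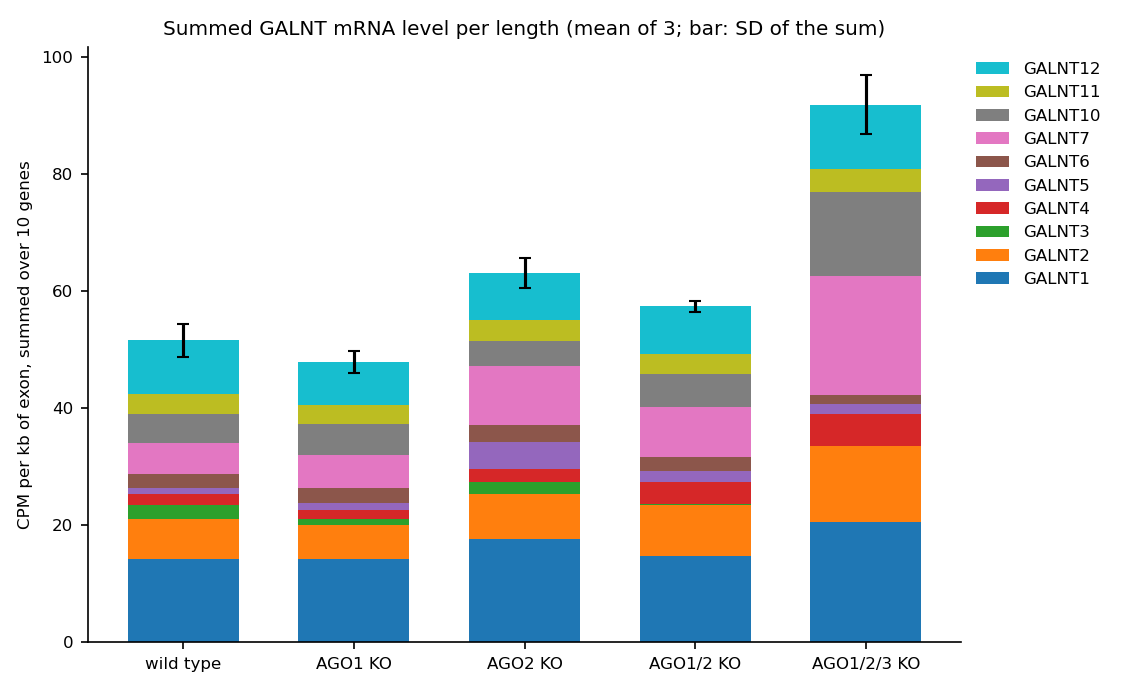
Bars stack the mean level of each gene in CPM per kb of exon for the 5 lines, on a linear axis from 0, and the error bar is the SD of the summed level over 3 samples. The stack reaches 51.6 CPM per kb in wild type and 91.9 in triple knockout cells, where the segments of *GALNT7* and *GALNT10* are the ones that widened most and *GALNT3* is too thin to see.

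Of 10 further family genes, 7 passed the filter, with means in wild type from 0.288 CPM for *GALNT8* to 14.7 CPM for *GALNT18*. In triple knockout cells 0 were called higher and 2 lower, against 20.3% and 19.8% of all genes, with a median log2 fold change of -0.72. *GALNT14*, which is known for O-glycosylating death receptors, was at 7.39, 6.66 and 8.47 CPM in wild type, at 4.68, 4.0 and 4.38 CPM in double and at 1.17, 1.72 and 1.69 CPM in triple knockout cells. The log2 fold changes were -0.79 (SE 0.15, adjusted p = 0.00159) and -2.31 (SE 0.16, adjusted p = 3.72e-08). *GALNT13*, an isoenzyme of neural tissue, was at 0.965 to 1.31 CPM in wild type and at 0.203 to 0.42 CPM in triple knockout cells, which is -2.11 on the log2 scale (SE 0.37, adjusted p = 0.000285) from 6 to 12 counts per sample. *GALNT18* (-0.42), *GALNT9* (-0.46), *GALNT16* (-0.41), *GALNT15* (-0.72) and *GALNT8* (-0.90) were not called in that comparison; without wild-type replicate 2 *GALNT18* was, at -0.67 (adjusted p = 0.00131), and *GALNT15* was called without wild-type replicate 3 (-0.96, adjusted p = 0.0484) or triple knockout replicate 1 (-1.21, adjusted p = 0.0288). *GALNT9* fell instead in the single knockouts, from 1.19, 2.33 and 1.09 CPM to 0.218, 0.292 and 0.367 CPM in *AGO1* knockout cells (log2 fold change -2.38, SE 0.38, adjusted p = 0.00124), and to 0.694, 0.694 and 0.557 CPM in *AGO2* knockout cells (-1.23, adjusted p = 0.0174, not called without wild-type replicate 2 or *AGO2* knockout replicate 2 or 3, where the adjusted p reached 0.0954). In double knockout cells *GALNT9* was at 1.12, 2.41 and 2.06 CPM, which overlapped wild type.

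Other steps of the pathway were counted in triple knockout cells from lists drawn up by function, beside a median of -0.009 and the shares of 20.3% higher and 19.8% lower over all genes. Of 11 tested enzymes that extend or cap O-glycans, 5 were called higher and 5 lower, with a median log2 fold change of -0.43. The 3 named by size among those with a mean of at least 1 CPM all fell: *ST3GAL1*, which sialylates core 1, from 24.8 ± 2.66 to 9.25 ± 0.848 CPM (SD, n = 3), *B3GNT3*, which extends core 1, from 12.5 ± 1.37 to 4.36 ± 0.954 CPM, and *GCNT3*, which makes branched cores in mucus-secreting tissue, from 6.87 ± 4.51 to 2.32 ± 0.239 CPM. Their log2 fold changes were -1.42 (adjusted p = 1.48e-07), -1.51 (adjusted p = 4.74e-05) and -1.57 (adjusted p = 0.0156), and the last was lost without wild-type replicate 2 (-0.94, adjusted p = 0.106) or triple knockout replicate 1 (-1.5, adjusted p = 0.0518). *C1GALT1*, the core 1 synthase that acts next on most GALNT products, and its chaperone *C1GALT1C1* were among those called higher, by 0.47 and 0.48 on the log2 scale. The other 3 called higher were *GCNT4*, which makes core 2 branches and had the largest change of the list (0.364 ± 0.201 to 2.14 ± 0.380 CPM, SD, n = 3), at 2.54, and the sialyltransferases *ST3GAL2* (0.96) and *ST6GALNAC2* (0.94). These 5 are named after their values were seen.

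Of 8 genes that supply sugar donors, 0 were called higher and 4 lower, and the named ones were *SLC35A1* (-0.60), the Golgi transporter of CMP-sialic acid, *GNPNAT1* (-0.39, not called without triple knockout replicate 1, adjusted p = 0.0585) of the hexosamine pathway, and *GALK2* (-0.35), a kinase of N-acetylgalactosamine. The median was -0.15. Without that same replicate 2 rather than 4 were called lower, and without wild-type replicate 2 there were 2 called higher. Of 7 tested mucins, 5 were called lower and 1 higher, with a median of -1.35. In *AGO2* knockout cells 6 were called lower and 0 higher (median -1.52), against 10.8% and 8.55% of all genes. In double knockout cells 2 were called lower and 0 higher (median -0.48), against 8.35% and 8.37%. In *AGO1* knockout cells 3 were called lower and 0 higher (median -0.55), against 5.50% and 3.17%. In triple knockout cells *MUC12* fell by 3.27 (SE 0.72, adjusted p = 0.00196), *MUC3A* by 1.35 (SE 0.16, adjusted p = 7.54e-06) and *MUC1* by 1.0 (SE 0.15, adjusted p = 6.04e-05), all 3 membrane-bound mucins. *MUC12* ranged from 4.61 to 16.4 CPM between wild-type samples and from 0.631 to 1.3 CPM in the triple knockout. The 1 mucin called higher, *MUC13*, went from 0.405 to 0.924 CPM in the mean and was not called without any of 4 single libraries, wild-type replicates 2 and 3 and triple knockout replicates 1 and 2. For comparison, among 12 enzymes of N-glycan processing 4 were called higher and 2 lower, with a median of 0.04, led by *MGAT4A* (1.59, SE 0.15, adjusted p = 1.05e-06), *MGAT2* (0.78) and *B4GALT1* (0.55).

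The 5 genes whose log2 CPM followed *GALNT3* most closely over the 15 samples, out of 12923 protein-coding genes ranked, were *GRHL2* (Pearson r = 0.984), *CRYBG1* (r = 0.982), *LMAN1* (r = 0.971), *MAL2* (r = 0.970) and *WIPF2* (r = 0.964). The samples fall into 5 lines of 3, so these values rest largely on 5 line means, the points share lines and libraries, and they are a description. *GRHL2*, a transcription factor of epithelial cells, averaged 31.8, 14.6, 28.9, 2.02 and 1.12 CPM in the order of lines used above, wild type to triple knockout. *MAL2*, a protein of apical membrane traffic, averaged 188.8, 65.5, 187.8, 2.22 and 0.399 CPM. Ranked by Spearman correlation, *GRHL2* kept rank 1 and *MAL2* had rank 3, and these 2 of the 5 genes remained in the leading 5.

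Epithelial markers were read in the same lines. *CDH1*, the E-cadherin gene, went from 97.7 ± 31.9 CPM in wild type to 43.9 ± 14.6 in *AGO1*, 66.9 ± 12.3 in *AGO2*, 30.9 ± 4.70 in double and 8.57 ± 0.739 in triple knockout cells (SD, n = 3), and its log2 fold change in the last was -3.51 (SE 0.26, adjusted p = 7.51e-08). *EPCAM* fell by 1.74 and *CDX2* by 0.58 on the log2 scale there, and of 6 tested markers 4 were called lower and 1, *KRT8*, higher by 0.41, the last named after its value was seen, against 19.8% and 20.3% of all genes. Of 5 mesenchymal markers 1, *COL3A1*, was called higher (0.472 ± 0.0149 CPM against 0.052 ± 0.0364, SD, n = 3) and 0 lower, against the same shares, and is also named after its value was seen. It had only 1 to 3 counts per sample in wild type and 13 to 19 in triple knockout cells. Its mean was 0.598 CPM in *AGO1*, 0.0453 CPM in *AGO2* and 0.0689 CPM in double knockout cells. The part of these marker changes in the level of *GALNT3* was not tested.

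Genes next to *GALNT3* on chromosome 2 were read for the same 2 lines. Within 1 Mb of it 5 expressed genes were tested, and 2 were called lower in double and in triple knockout cells, where 8.35% and 19.8% of all genes were. *COBLL1*, 951.0 kb away toward the start of the chromosome, was at 11.1, 10.6 and 8.44 CPM in wild type and at 0.641, 0.31 and 0.553 CPM in double knockout cells (log2 fold change -4.31, SE 0.22, adjusted p = 1.08e-08), and fell by 3.95 (SE 0.21, adjusted p = 2.95e-09) in the triple. *SCN9A* fell by 1.87 and 1.72, and likewise in both single knockouts (-1.96 and -2.07). The nearest, *TTC21B*, 159.2 kb away, was at 27.4 ± 4.25 CPM in wild type and 28.1 ± 1.63 CPM in triple knockout cells (SD, n = 3), with log2 fold changes of 0.11 and 0.03 (SE 0.11). *SCN2A* (0.04 and -0.13) and *SCN1A* (-0.23 and 0.09) were not called either. *GRB14*, just outside the window at 1173.2 kb, was at 6.52, 4.56 and 5.49 CPM in wild type, at 5.72 ± 0.599 CPM in *AGO1* and 4.97 ± 0.184 CPM in *AGO2* knockout cells, and had 1 to 8 counts per sample in double and 0 to 3 in triple knockout cells. Against a floor of 3 counts per library it was at least 58.5-fold lower in the triple knockout. *B3GALT1*, the other expressed gene between 1 and 2 Mb away, lay at 1498.3 kb. Its log2 fold changes were -0.67 (adjusted p = 0.0857) in double and -0.85 (adjusted p = 0.0143) in triple knockout cells. They were -0.89 in *AGO1* and -1.96 in *AGO2* knockout cells. Both genes lie outside the window and are named after their values were seen. Unlike *GALNT3*, *COBLL1* and *GRB14* had log2 fold changes of 0.35 and 0.05 in *AGO1* knockout cells and were not called there (adjusted p = 0.208 and 0.927). Around the other 9 members, between 5 and 20 expressed genes lay within 1 Mb, and the medians of their log2 fold changes in triple knockout cells were between 0.02 and 0.33, also around *GALNT7* (0.09) and *GALNT10* (0.18).

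**Figure D4:**
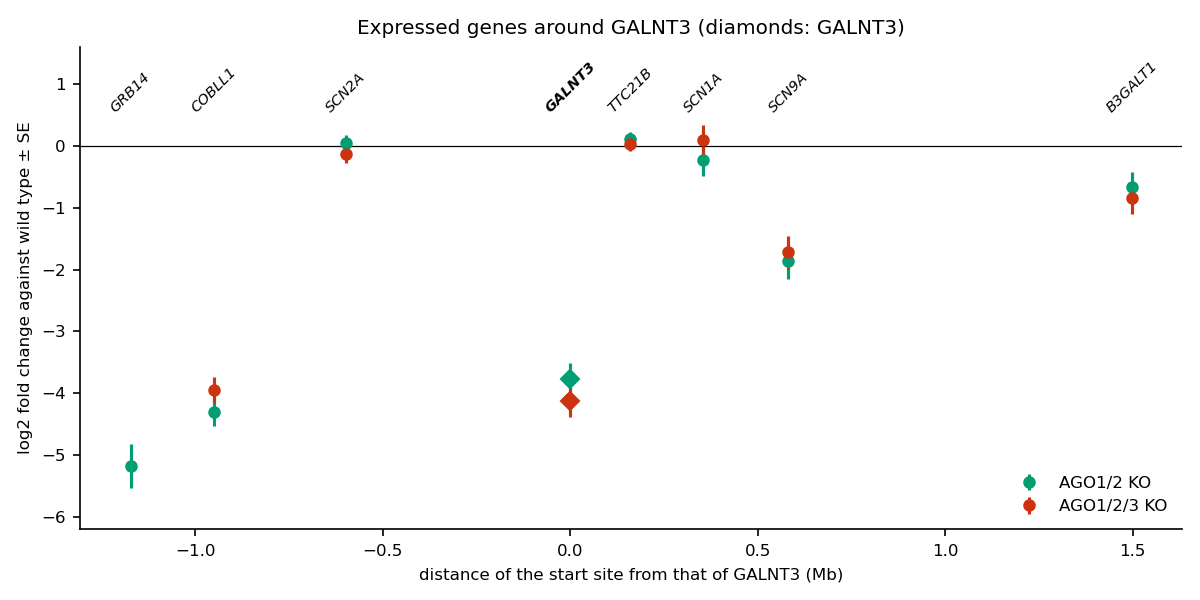
The horizontal axis is the distance of each gene's start site from that of *GALNT3* in Mb, and the vertical axis the log2 fold change against wild type with its standard error, for double and triple knockout cells by colour, with diamonds for *GALNT3*. *COBLL1* lies as low as *GALNT3*, *SCN2A*, *TTC21B* and *SCN1A* lie near 0, and *GRB14* has no point in the triple knockout, where it was at the floor.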

How the data were processed

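Quality-filtered reads were aligned by the authors to hg38 with STAR and quantified with Salmon (versions 2.5.3a and 0.11.0 in the submitters' processing notes). They deposited estimated counts per gene, not normalized, one file per sample. The libraries were strand-specific. The release of the transcriptome annotation was not checked here. The 8 eCLIP samples were not analysed here.

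Estimated counts were rounded and filtered with edgeR's filterByExpr, and all 15 samples entered 1 edgeR 4.0.16 model with a mean per line (TMM, quasi-likelihood test) in R 4.3.3. The biological coefficient of variation was 0.152. The fit was tested on simulated data. No 2 of the 15 files were identical. Replicates are separate samples by label, and p-values measure the spread between them; with 3 samples a group, the smallest two-sided p of an exact permutation test is 0.1.

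The members and lists were chosen with earlier results of these data known. Named genes were all 10 members, the tested rest of the family, the 3 genes of each other list with the largest change in *AGO1/2/3* knockout cells (called, mean of at least 1 CPM, no overlap of samples), the 5 genes most like *GALNT3* and its neighbours. Positions and exons come from GENCODE v44 on GRCh38, which matched 57167 of 57875 genes. Log2 CPM used a prior count of 2. Summaries were made with Python 3.11.15, numpy 2.4.6 and pandas 2.3.3. Like length means a 3′-UTR of 80% to 125% of the member's. Alternatives were each sample left out, a block for the replicate number, a fit of the compared lines alone, dropping the filter, requiring 10 counts in all samples, scaling by total counts or by DESeq2's size factors, and DESeq2 1.42.0 with its Wald test. After the data were seen, the omission of the *AGO2* knockout samples and *GALNT4* summed with its readthrough were added.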

Additional observations from a re-analysis of the deposited data

Results flagged for a closer look

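The difference between lines lacking and carrying *AGO2* was not the same with and without *AGO1* for 2 of 9 paralogs and 5 of 7 further family genes. This is by the interaction test, where 11.5% of all genes were called higher and 8.26% lower. Each genotype is 1 line, so genotype and line cannot be told apart. Each gene is given as a value. The log2 difference was 0.96 for *GALNT4* (SE 0.24, adjusted p = 0.0116) and -1.53 for *GALNT5* (SE 0.48, adjusted p = 0.0348). The first was not called when summed with the readthrough (0.49, adjusted p = 0.0842), and the second was lost under 8 of 22 alternatives (adjusted p up to 0.108). For *GALNT9* it was 3.89 (SE 0.49, adjusted p = 9.87e-05). Its level changed by -1.23 from wild type to *AGO2* knockout cells and by 2.66 from *AGO1* to double knockout cells. *GALNT9* too was low, at no more than 2.41 CPM in any sample and 7 to 11 counts per sample in *AGO1* knockout cells. The log2 difference was -1.39 for *GALNT14* (adjusted p = 0.000288) and -1.24 for *GALNT18* (adjusted p = 0.00478), where the changes were 0.50 and -0.89, and 0.59 and -0.65. *GALNT13*, at -1.42 (adjusted p = 0.0392), and *GALNT15*, at 1.72 (adjusted p = 0.0263), were under 3 CPM in every sample and lost the call without any of 8 and 5 single libraries (adjusted p up to 0.113 and 0.0726): for *GALNT13* wild-type replicates 1 and 3, *AGO1* knockout replicates 2 and 3, *AGO2* knockout replicates 1 and 3 and double knockout replicates 2 and 3, and for *GALNT15* wild-type replicate 1, *AGO1* knockout replicates 1 and 3, *AGO2* knockout replicate 2 and double knockout replicate 3. All 7 values use the *AGO2* knockout files, whose mode of quantification cannot be told apart from the genotype. These files were also deeper than those of most other samples.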

How the results depend on the processing

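The 6 paralog calls in the triple knockout against wild type kept their direction and side of the threshold under every alternative run. Fitting only the lines compared called 658 genes instead of 1982 in *AGO1*, 1868 instead of 4408 in *AGO2* and 2116 instead of 3820 in double knockout cells. With total counts only, 1 paralog was called lower in *AGO2* knockout cells against wild type, 1 lower against *AGO1* knockout cells and 3 higher in the interaction; DESeq2 and the minimum of 10 counts also gave 1 lower in *AGO2* against *AGO1* knockout cells. Leaving out 1 sample at a time, the genes called ranged from 964 to 1984 (*AGO1*), 1529 to 5190 (*AGO2*) and 2235 to 5426 (*AGO2* against *AGO1*), and the paralogs called lower from 0 to 1 in the last; in the interaction the paralogs called ranged from 1 to 2 higher and from 0 to 1 lower. The lowest of these were reached without replicate 2 of *AGO1*, replicate 2 of *AGO2* and replicate 3 of *AGO2* knockout cells. The cause was not tested.

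Replicate numbers are shared between lines, but same-numbered samples did not deviate together (mean r = -0.0067 over 30 pairs, from -0.218 to 0.291) and 3 of 15 samples correlated best with their own number, so the numbers were not read as pairs. With the replicate block, 0 paralogs were called lower in the interaction, as also with only the lines compared, because *GALNT5* was then at an adjusted p of 0.0561 and 0.0553; *GALNT12* in triple against double knockout cells was at 0.051 and *GALNT13* in the interaction at 0.058.

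Some calls were gained: in *AGO2* knockout cells *GALNT6* without wild-type replicate 3 (0.36, adjusted p = 0.0483) and *GALNT1* without *AGO1* knockout replicate 3 (0.32, adjusted p = 0.0497), in double knockout cells *GALNT5* without the filter (0.85, adjusted p = 0.0175), and *GALNT4* in *AGO2* against *AGO1* knockout cells under 4 of 23 alternatives. The sign changed for values near 0 that were not called. With total counts only these were, on the log2 scale, *GALNT6* (-0.07) and *GALNT10* (-0.02) in *AGO1* knockout cells, *GALNT11* in *AGO2* knockout cells (-0.05), *GALNT1* (-0.05), *GALNT11* (-0.07) and *SCN2A* (-0.05) in double and *TTC21B* (-0.11) and *SCN1A* (-0.06) in triple knockout cells. Without the filter, *GALNT1* in *AGO1* knockout cells (0.01) and *GALNT11* in the interaction (-0.03) changed sign, as did *GALNT11* in double (-0.02) and *TTC21B* in triple knockout cells (-0.03) with the minimum of 10 counts, *TTC21B* in triple knockout cells (-0.02) with only the lines compared, and *GALNT4* in *AGO1* knockout cells (0.13) summed with its readthrough. Without single samples, the range in *AGO1* knockout cells was -0.09 to 0.09 for *GALNT1*, -0.03 to 0.11 for *GALNT6* and -0.19 to 0.05 for *GALNT11*. It was -0.07 to 0.17 for *GALNT11* in *AGO2* knockout cells, and -0.06 to 0.07 for *GALNT1*, -0.12 to 0.02 for *GALNT6* and -0.11 to 0.13 for *GALNT11* in double knockout cells. For *GALNT12* in *AGO2* against *AGO1* knockout cells it was -0.09 to 0.2, and for *GALNT11* in the interaction -0.09 to 0.15. Of the neighbours of *GALNT3*, the range in double knockout cells was -0.13 to 0.14 for *SCN2A*, -0.03 to 0.18 for *TTC21B* and -0.44 to 0.07 for *SCN1A*, and in triple knockout cells -0.12 to 0.09 for *TTC21B* and -0.08 to 0.37 for *SCN1A*.

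Between 3 (minimum of 10 counts) and 8 (no filter) mucins were called lower in triple knockout cells, as the filter sets how many are tested. The median over the neighbours of *GALNT3* was -0.23 and -0.13 in double and triple knockout cells within 1 Mb, and -0.67 and -0.85 within 2 Mb. *GALNT3* had 12 to 29 counts per sample in the double and triple knockouts, whose samples overlapped. Its log2 fold change from the double to the triple knockout was -0.36 (SE 0.3). The part of depth in this was not tested.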
